A study of Mus musculus with 36 samples.

Results

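Ltf, Lcn2, Pglyrp1, Lyz1 and Lyz2 encode antimicrobial proteins that are secreted into saliva and other mucosal fluids or stored by phagocytes. These 5 genes were chosen by name out of 31102 genes listed in the single-cell tables, and all 5 were present in every kind of table. They were followed in mouse submandibular glands of 2 genotypes. Control glands carried K14-Cre and, as the study's methods describe, an R26-EYFP reporter. Double-mutant glands carried the same Cre and reporter together with a β-catenin gain-of-function allele (β-catenin GOF) and loss of the BMP receptor Bmpr1a (Bmpr1a LOF), on a C57BL/6 background. Cre was driven by the promoter of keratin 14, a keratin of basal epithelial cells. Single cells were profiled by Drop-seq, a droplet method that counts unique molecular identifiers (UMIs), in 6 control and 7 double-mutant glands at postnatal day 40 (P40) and in 6 control and 7 double-mutant glands at P90. A further 2 control and 2 double-mutant glands at P70 were profiled by CITE-seq, and bulk RNA-seq was done on 1 gland of each genotype, the control at P70 and the double mutant at P100.

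Lactotransferrin, the product of Ltf, binds iron and withholds it from bacteria. Lipocalin 2, from Lcn2, captures the siderophores with which bacteria collect iron, and its gene is a known target of interleukin and NF-kappaB signalling. Pglyrp1 encodes a peptidoglycan recognition protein that kills bacteria by binding their cell wall, and Lyz1 and Lyz2 encode lysozymes that cut peptidoglycan. Lyz2 is the lysozyme of macrophages and other myeloid cells, and Lyz1 is best known from Paneth cells of the intestine. Neutrophil granules also hold lactotransferrin, lipocalin 2 and Pglyrp1, so neutrophil markers were read beside the members.

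On mouse build GRCm38 (mm10, the build of the deposited files) the GENCODE annotation places each member as a protein-coding gene. Ltf lies at chr9:111019271-111042767 on the plus strand, Lcn2 at chr2:32384633-32388252 on the minus strand and Pglyrp1 at chr7:18871331-18890459 on the plus strand. Lyz1 (chr10:117287797-117292868) and Lyz2 (chr10:117277331-117282321) are neighbours on the minus strand with 5475 bases between them. Only 107 of 1200 windows of 64 bases in the Lyz1 transcript (8.92%) were also found in a Lyz2 transcript, so reads of the pair can mostly, but not always, be told apart. The lysozyme pair also shares promoter sequence, and it is shown here because its genes moved together across glands. The following windows run from 150 to 51 bases before the RefSeq transcription start (GRCm38.p6), 5′ to 3′ on the gene's strand, at chr10:117292919-117293018 for Lyz1 and chr10:117282323-117282422 for Lyz2, with capitals at bases that differ between them.
Lyz1: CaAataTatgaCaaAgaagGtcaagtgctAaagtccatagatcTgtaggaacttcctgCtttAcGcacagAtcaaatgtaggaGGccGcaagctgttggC
Lyz2: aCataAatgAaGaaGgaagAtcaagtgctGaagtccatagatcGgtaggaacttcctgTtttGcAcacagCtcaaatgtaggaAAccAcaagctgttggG

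In a global alignment 84 of 101 columns of these windows were identical (83.2%), and over the whole 250 bases before the start the pair was 79.4% identical. Matches to 4 motifs were counted on both strands of those 250 bases: C/EBP (TTGCNNAA), TCF/LEF (CTTTGAT), PU.1 (GAGGAAGT) and the NF-kappaB motif. A C/EBP match began 75 bases before the start of Ltf, 216 bases before that of Lcn2 and 209 bases before that of Lyz1, and 9.56% of 32851 RefSeq mouse promoters of the same length held one. An NF-kappaB match began 93 bases before the start of Pglyrp1, against 7.25% of all promoters. No member's window held the TCF/LEF or PU.1 letters, which were found in 3.2% and 2.44% of promoters. The windows of Ltf (chr9:111019142-111019241) and Pglyrp1 (chr7:18884540-18884639) are shown with their match in capitals, over the same 150 to 51 bases before the start. For Pglyrp1 and Lcn2 the 250 bases lie inside the GENCODE span given above, because the RefSeq start used here differs from the GENCODE one. Their matches are thus upstream of the RefSeq start only. A match describes the letters and shows no binding.
Ltf: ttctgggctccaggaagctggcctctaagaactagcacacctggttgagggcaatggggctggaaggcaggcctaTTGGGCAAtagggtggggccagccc
Pglyrp1: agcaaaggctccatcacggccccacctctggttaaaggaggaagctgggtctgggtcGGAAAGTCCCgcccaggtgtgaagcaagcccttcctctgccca

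Of 26987 Drop-seq barcodes 23346 were kept, and the glands held 650301 to 6994504 UMIs each. Median depth per cell differed between groups, from 2892 UMIs in control P40 glands to 766.5 UMIs in double-mutant P90 glands. Only 20 of 25861 kept barcodes occurred in more than 1 library. In 2 of 26 libraries, double-mutant P40 replicate 1 and double-mutant P90 replicate 5, Xist and Y-linked counts went against the sex label. Double-mutant P90 replicate 4 had the highest ribosomal gene share, 8.71% of UMIs against 7.94% in the next gland and a median of 3.43%. Results that rest on these libraries are given without them where a call changed. All control P90 glands came from batches 7 to 9 and all control P40 glands from batches 12 to 14, so stage and batch, as the sample names give it, cannot be told apart in controls.

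The comparison of whole glands asked which members differed between double-mutant and control glands, with UMIs of all cells of a gland summed and sex and stage in the model. Ltf, Lcn2, Lyz1 and Lyz2 were higher in double-mutant glands and Pglyrp1 was not called in either direction, so 4 of 5 members passed, against a background of 22.0% of 10488 genes tested (14.4% higher and 7.57% lower in double mutants). Of all calls 65.6% were higher in double mutants, a split that moved to 99.0% with scaling by library totals, which shifted the median of all genes by 0.66 on the log2 scale. The direction of the 4 called members was the same under every scaling tried. In these sums fewer cells of a type and less RNA per cell cannot be told apart. The filter on low counts asked for 4.34 CPM in several glands. No control gland reached that level of Lyz1 and 1 of 12 that of Ltf, against 12 and 11 of 14 double-mutant glands. Both genes thus passed through the double mutants and were bound to lean higher there. Their part in these counts of members is therefore no support, and Lcn2 and Lyz2, which 7 and 12 control glands held at that level, are the calls free of this.

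Ltf was at or near 0 in control glands. In control P40 glands it ranged from 0 to 4.87 CPM (the gene's count scaled to a fixed library total) with a median of 0.314, and all 6 control P90 glands were at 0, where a count of 0 allows up to 0.247 CPM over the group. In double-mutant P40 glands the lowest, median and highest values were 0, 41.9 and 296.8 CPM, and in double-mutant P90 glands they were 0.254, 229.9 and 1179 CPM. Double-mutant glands therefore spread over more than the whole control range, with 11 of 14 above every control gland. The genotype difference in whole glands was 6.47 ± 1.08 (log2 fold change ± SE, adjusted p = 0.000321 edgeR quasi-likelihood test, Benjamini-Hochberg adjusted). At P90 no gland overlapped between genotypes, though double-mutant replicate 7, the lowest, held 1 Ltf UMI. The mean of the double mutants was at least 1702-fold higher than the limit for the control group (3 counts over the group), and the adjusted p was 0.00559. At P40 the groups overlapped, the log2 difference was 4.97 ± 1.39 and the adjusted p of 0.072 missed the threshold.

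Lyz1 was also near 0 in control glands, where the 12 glands held 15 UMIs together. Its control P40 glands ran from 0 to 0.43 CPM with a median of 0.105, and its control P90 glands from 0 to 4.02 CPM with a median of 0.391. In double mutants the lowest, median and highest values were 0.614, 4.95 and 18.5 CPM at P40 and 6.36, 17.3 and 31.9 CPM at P90. The genotypes did not overlap at either stage, the log2 difference over all glands was 3.88 ± 0.54 (adjusted p = 4.71e-05, edgeR), and it was 4.34 ± 0.87 at P40 (adjusted p = 0.0164) and 3.62 ± 0.70 at P90 (adjusted p = 0.00362).

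Lyz2, the macrophage lysozyme, was detected in every gland. Control glands held 5.54 to 65.4 CPM at P40 (median 13.2) and 4.75 to 86.2 CPM at P90 (median 66.1). Double-mutant glands held 55.9 to 525.9 CPM at P40 (median 133.1) and 141.5 to 570.9 CPM at P90 (median 508.6). The genotypes overlapped at P40 and not at P90. The log2 difference was 2.63 ± 0.41 over all glands (adjusted p = 0.000182, edgeR), 2.59 ± 0.58 at P40 (adjusted p = 0.0289) and 2.63 ± 0.58 at P90 (adjusted p = 0.00876).

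Lcn2 was found in nearly every gland of both genotypes. Control glands ranged from 0 to 15.7 CPM at P40 (median 10.7) and from 0.588 to 62.7 CPM at P90 (median 8.57). Double-mutant glands ranged from 2.63 to 65.6 CPM at P40 (median 20.4) and from 13.2 to 125.9 CPM at P90 (median 79.7). Of the double-mutant glands 7 of 14 lay above every control gland, and the groups overlapped at both stages. The log2 difference was 1.52 ± 0.55 over all glands (adjusted p = 0.0492, edgeR), just inside the threshold, and at single stages it was 1.08 ± 0.73 (P40, adjusted p = 0.378) and 1.93 ± 0.75 (P90, adjusted p = 0.103). The call rested on single libraries. It was kept in 8 of 26 fits that each left out 1 gland, those without control P40 replicate 3, control P90 replicate 4, double-mutant P40 replicates 1, 3, 4 or 7 or double-mutant P90 replicates 1 or 7, and was lost in the other 18, where the log2 difference was 1.29 to 1.63 with adjusted p of 0.0519 to 0.0966. Without double-mutant P90 replicate 4, which had the most Lcn2 and the high ribosomal share, it was 1.398 (adjusted p = 0.0588), and with batch as a factor it was 0.87 (adjusted p = 0.434).

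Pglyrp1 varied more within each group than between groups. Its lowest, median and highest values were 1.43, 542 and 750.2 CPM in control P40 glands, 4.7, 14.8 and 765.1 CPM in control P90 glands, 27.5, 558.8 and 1059 CPM in double-mutant P40 glands and 16.5, 248.6 and 1029 CPM in double-mutant P90 glands. Among control P90 glands only replicate 3 was high, at 765.1 CPM, and the other 5 held 4.70 to 35.1 CPM, while each of the other groups had glands at both ends. The log2 difference was 0.03 ± 0.88 over all glands (adjusted p = 0.986, edgeR), a standard error too large to detect differences of several fold. It was −0.24 ± 1.19 at P40, where the mean CPM ran the other way (411.6 in controls and 531 in double mutants), and 0.30 ± 1.26 at P90.

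**Figure D1:**
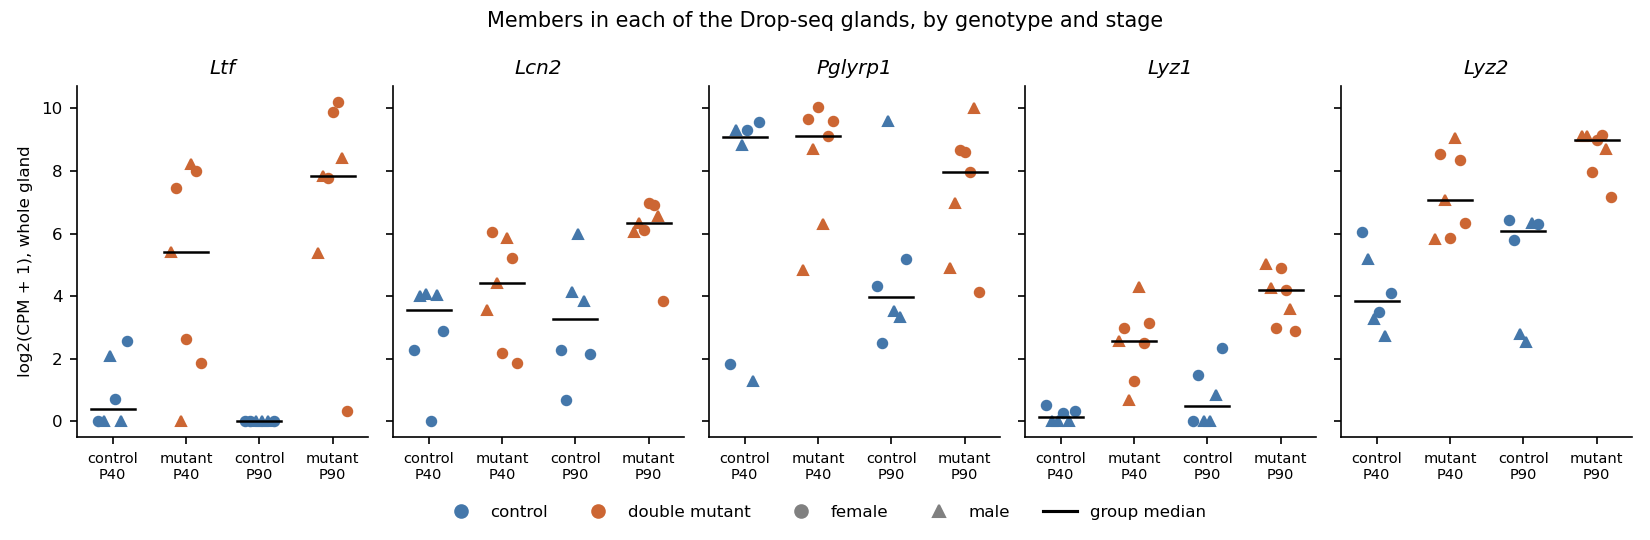
Level of each member in every Drop-seq gland as log2(CPM + 1), with 1 point per gland, circles for females, triangles for males and a line at the group median. Double-mutant glands lie above all controls for Lyz1 at both stages and for Ltf and Lyz2 at P90 (the lowest Ltf point there stands on 1 UMI), while Pglyrp1 spreads from low to high in every group, with 1 high gland among control P90 glands.

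At P40, 2 of 5 members were called (Lyz1 and Lyz2), against 1.37% of 11420 genes, and at P90 3 of 5 (Ltf, Lyz1 and Lyz2), against 8.06%, with Ltf and Lyz1 again past the filter through the double mutants. Some of these calls depended on the test. With batch as a factor Lyz2 at P40 (2.26, adjusted p = 0.415, edgeR) and Ltf at P90 (adjusted p = 0.0592) missed the threshold, while DESeq2 called Ltf at P40 (adjusted p = 0.0227) and Lcn2 at P90 (adjusted p = 0.0283). Genes whose genotypes did not overlap and were higher in double mutants made up 2.23% of genes at P40, where Lyz1 was 1 of them, and 1.05% at P90, where Ltf, Lyz1 and Lyz2 were. No member was called between P90 and P40 in controls, where 5.05% of genes were, or in double mutants, where 0.0% were. That count of 0 genes came from edgeR, with 1122 genes at an unadjusted p under 0.05, and DESeq2 called 40. Among double mutants the largest stage difference relative to its error was that of Lyz1, 1.59 ± 0.55 on the log2 scale (adjusted p = 0.333). The difference between the genotype effects at the 2 stages was called for 1 gene (0.00876%), which was no member, and for Ltf its adjusted p was 0.904.

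Both genotypes were present in batches 8, 9, 12, 13 and 14, which gave within-batch differences of mean log2(CPM + 1). In that order they were 7.82, 9.87, 5.53, 3.42 and 0.77 for Ltf, 3.62, 3.31, 2.18, 3.22 and 2.95 for Lyz1 and 5.88, 2.67, 1.66, 4.92 and 2.89 for Lyz2, higher in double mutants in 5 of 5 batches for each. For Lcn2 they were 1.16, 3.99, 1.23, 0.91 and −0.45, and for Pglyrp1 1.27, 4.36, 4.46, −2.32 and 2.89, so each of these was lower in double mutants in 1 batch on this scale. In batch 8 the mean CPM of Pglyrp1 ran the other way, 263.9 in double mutants against 387.8 in controls. In batches 12 and 13 all controls were P40 glands and the double mutants included 1 P90 gland each, so genotype is mixed with stage there. Each batch held 1 to 3 glands of a genotype, and no test was made within it. CPM is scaled by library totals, which in whole glands shifted the median of all genes up by 0.66 in double mutants. The share of all genes higher in 5 of 5 batches was not counted, so these counts have no background.

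The submandibular gland of the mouse is sexually dimorphic, with granular ducts that are larger in males, so the members were also compared between sexes. In control glands Lcn2 was higher in males. Control females held 0 to 6.41 CPM (median 3.65) and control males 13.3 to 62.7 CPM (median 15.5), with no overlap over 6 glands of each. The log2 difference, male minus female, was 3.19 ± 0.70 (adjusted p = 0.0265, edgeR), and Lcn2 was the 1 member of 5 called, against 0.56% of genes. It missed the threshold with batch as a factor (2.43, adjusted p = 0.821) and with scaling by library totals (2.71, adjusted p = 0.235). Ductal Egf+-like cells, which are the granular duct type, made up 4.13 to 38.2% of the cells of control males and 0 to 1.95% of those of control females, and held 47.3 to 96.2% of the Lcn2 UMIs of each male gland. Their part in the difference was not tested. In double-mutant glands Lcn2 ranged from 2.63 to 125.9 CPM in 8 females and from 10.8 to 94.1 CPM in 6 males, with a log2 difference of 0.27 ± 0.56 (adjusted p = 1, edgeR). No member was called there, against 0.0% of genes, with 414 genes at an unadjusted p under 0.05 and 6 called by DESeq2. Without the 2 libraries that went against their sex label the Lcn2 difference was 0.48 ± 0.60. The difference between the sex effects of the genotypes, a test added after the data were seen, was −2.92 ± 0.90 on the log2 scale for Lcn2 (unadjusted p = 0.00311, adjusted p = 1, edgeR). It was called for 0.0% of genes, with 398 at an unadjusted p under 0.05 and 2 called by DESeq2.

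The cells were then clustered with the 5 members held out, and clusters were named from fixed marker genes, so the members' levels had no part in the cell groups. A level here is the number of UMIs of a gene per 10000 UMIs of the cell group in a gland, averaged over glands with at least 10 such cells. The members were highest in different cells: Ltf and Lcn2 in a luminal type found in double-mutant glands, Pglyrp1 in luminal cells with Dcpp genes, and Lyz1 and Lyz2 in immune-like cells. With cell groups ordered by a member's level, 114 pairs of neighbouring cell groups were compared by a two-sided exact sign-flip permutation test over glands (100000 resamples where enumeration was too large), and 1 pair passed after adjustment over all pairs, that of Lyz2 in immune-like cells over basal-like cells (higher in 21 of 21 glands, adjusted p = 0.00114 by the permutation test). The order came from the same levels that were tested, so the pairs and the direction were chosen from the data. These p-values, and those of neighbouring groups given below, are therefore no independent support.

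**Figure D2:**
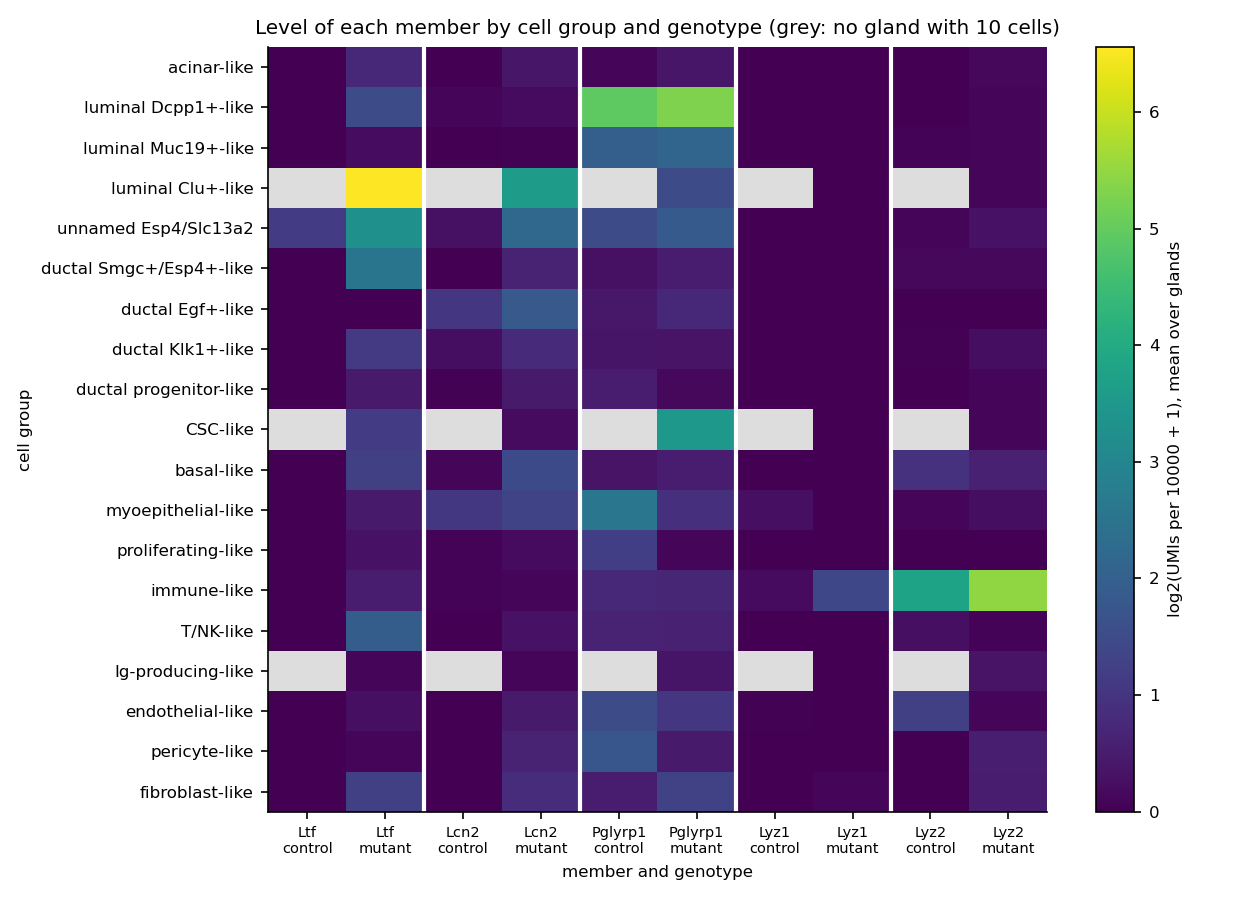
Mean level of each member by cell group (rows) and genotype (columns), as log2(UMIs per 10000 + 1) over glands with at least 10 cells of the group, with grey where no gland had them. In double mutants Ltf has its highest level in luminal Clu+-like cells (93.2 UMIs per 10000), Pglyrp1 in luminal Dcpp1+-like cells (38.4) and Lyz2 in immune-like cells (43.6).

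Ltf was highest in 197 luminal Clu+-like cells, which carry clusterin (Clu) and the WAP-domain genes Wfdc18 and Wfdc2 and whose leading genes were H19, Reg3g and Igf2. All 197 came from double-mutant glands. In the 8 glands with at least 10 of them Ltf stood at 93.2 ± 32.8 UMIs per 10000 (SD, lowest 62.2, highest 154.1). The next group, an unnamed one led by Esp4 and Slc13a2, held 8.83 ± 10.5 in 14 double-mutant glands and 1.25 ± 3.06 in 6 control glands. Over the 8 glands with both groups the difference was 78.2, higher in 8 of 8, with an exact permutation p of 0.00781, the smallest that 8 glands allow, and 0.371 after adjustment. This cell group was separated only when mixed clusters were split a second time. Without that split, an alternative chosen after seeing the data, the highest group for Ltf was an unnamed one led by Esp4 and Hp at 11.2 ± 19.96 (26 glands), and at a clustering resolution of 0.6 it was ductal Klk1+-like at 11.3 ± 21.0, while at 1.4 it was again Clu+-like at 26.3 ± 29.9 (15 glands). The 15 glands at 1.4 outnumber the 14 double-mutant glands, so the group drawn at that resolution also held control cells. At the main resolution the Clu+-like cells were 1.56% of double-mutant cells and held 46.8% of the 4007 Ltf UMIs found in that genotype.

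Ltf in a whole gland went with the presence of these cells. The 11 double-mutant glands with at least 1 Clu+-like cell held 5.23 to 1179 CPM and the 3 without any held 0 to 2.63 CPM. Within the 11 glands 22.2 to 66.8% of Ltf UMIs lay in the Clu+-like cells, and up to 654 CPM remained when they were left out, so much of the transcript was counted in cells of other groups. In all, 569 of 12603 double-mutant cells (4.52%) held an Ltf UMI, 53 of them held 50% of the UMIs, and the highest cell held 91. In controls 7 of 10743 cells held 45 Ltf UMIs, 23 of them in 1 cell.

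Free RNA in droplets can leave UMIs in cells that do not express a gene, so shares of cells were compared at an equal depth of 500 UMIs. At that depth 108 of 158 Clu+-like cells held an Ltf UMI, 68.4% (95% exact binomial interval 60.5 to 75.5, counting error only; 72.6% without thinning). The share was 10.9% in double-mutant Esp4/Slc13a2 cells. It was 0.484% in acinar-like, 1.05% in immune-like, 0.728% in endothelial-like and 0.709% in T/NK-like cells of double mutants, whose median depths before thinning were 3475, 890, 965.5 and 873 UMIs against 1066 in Clu+-like cells. The level of free RNA was not measured. UMIs in these types were unevenly spread, with up to 41 in 1 acinar-like cell, up to 27 in 1 immune-like cell and all 24 of the T/NK-like cells in 1 cell.

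Genotype tests within cell groups were possible for 16 groups, and a member was read only where it passed the filter on low counts there. Of 20 such tests 9 were called. In 8 of these 9 no control gland reached the level that the filter asked for. The gene there passed through the double mutants and was bound to lean higher in them, and Lyz2 in immune-like cells was the 1 call free of this. No control gland reached that level in 3 tests that were not called either. Ltf was called in 5 of 7 groups, with the double mutants higher in each: acinar-like (1.64% of genes called in that group), basal-like (9.86%), ductal Smgc+/Esp4+-like (1.46%), luminal Dcpp1+-like (0.623%) and an unnamed group led by Gm24245 (2.81%). Controls held 0 to 2 Ltf UMIs in each of these groups. The double-mutant levels there were 0.684, 1.37, 4.88, 1.84 and 5.28 UMIs per 10000, all far below the Clu+-like level of 93.2. Single cells and glands weighed on them. In basal-like cells 7 of 13 double-mutant glands were at 0 and 91 of 156 Ltf UMIs lay in 1 cell, and in Smgc+/Esp4+-like cells 3 of 7 glands were at 0, the median was 0.158 and the highest gland stood at 29.2. Of the 156 basal-like UMIs 142 lay in a part led by Chil1, Sostdc1 and Col17a1, which had 601 double-mutant and 6 control cells. A basal-like part led by Tnc, Gm7897 and Il33, which both genotypes had, held 0 Ltf UMIs in each genotype. The Smgc+/Esp4+-like group joined a part led by Fgg (209 control and 38 double-mutant cells) and a part led by RP24-89H23.2 and Dcdc2a (48 and 174). Controls held 0 Ltf UMIs in both parts, and double mutants held 30 and 27. How much of the basal-like and Smgc+/Esp4+-like calls came from such mixes of parts was not tested. The acinar-like call is at the low share of cells given above. Without the 2 libraries that went against their sex label the call in the Gm24245 group was lost. Ltf was not called in the Esp4/Slc13a2 group (adjusted p = 0.213, against 4.5% of genes) or in a group led by Gm12873 (adjusted p = 0.886, against 0.395%).

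**Figure D3:**
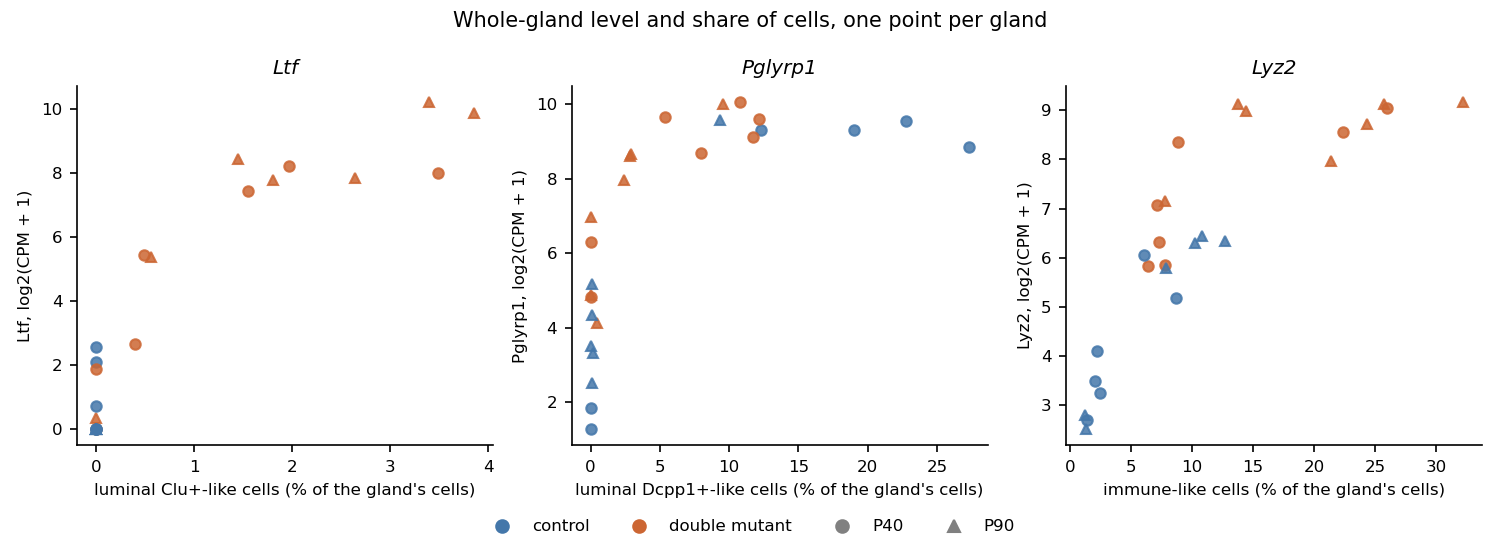
Whole-gland level of Ltf, Pglyrp1 and Lyz2 as log2(CPM + 1) against the share of luminal Clu+-like, luminal Dcpp1+-like and immune-like cells in the same gland, with 1 point per gland (circles P40, triangles P90, control glands in blue and double-mutant glands in orange). The level and the share come from the same library. Glands without Clu+-like cells held at most 4.87 CPM of Ltf, and glands without Dcpp1+-like cells held at most 125.2 CPM of Pglyrp1. Every gland had immune-like cells, with a lowest share of 1.25%.

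Lcn2 was highest in the same Clu+-like cells, at 11.2 ± 8.65 UMIs per 10000 (SD, 8 glands, lowest 4.61, highest 26.9), but did not differ there from the Esp4/Slc13a2 group beyond the spread (5 of 8 glands higher, exact permutation p = 0.281, adjusted p = 1). Of the 197 Clu+-like cells 143 held Ltf, 61 held Lcn2 and 52 held both. Pglyrp1 was found in 25 of them, Lyz2 in 1 and Lyz1 in 0.

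In controls most Lcn2 lay elsewhere. Ductal Egf+-like cells, 7.78% of control cells, held 65.5% of control Lcn2 UMIs at a level of 1.05 ± 0.92 UMIs per 10000 over 9 glands. Nearly all of these were UMIs of males, and in control females the share was 0 to 16.7% of a gland's few Lcn2 UMIs. Myoepithelial-like cells had a like level, 1.10 ± 1.33 in 7 control and 1.53 ± 1.13 in 6 double-mutant glands. In double mutants only 2 glands had 10 or more Egf+-like cells, with Lcn2 at 2.59 ± 0.28. The share of Egf+-like cells was 9.22% ± 13.1 in control and 0.774% ± 1.35 in double-mutant glands (permutation test over glands, adjusted p = 0.00839). That is 1 of 11 cell groups whose share differed between genotypes, 42.3% of the 26 groups compared. Lcn2 was called within basal-like cells, with 0.069 ± 0.195 UMIs per 10000 in 8 control glands, of which 7 were at 0, and 1.76 ± 1.54 in 13 double-mutant glands (log2 difference 3.76 ± 0.65, adjusted p = 0.000627, edgeR), and within Esp4/Slc13a2 cells (3.54 ± 0.98, adjusted p = 0.0358), both times past the filter through the double mutants alone. Within the cluster that held many of the basal-like cells, a part led by Chil1, Sostdc1 and Col17a1 was almost wholly double-mutant (99.0% of its 607 cells) and held Lcn2 at 2.45 ± 0.57 in 9 glands. A part led by Cnn1, 1500015O10Rik and Pcp4, which was named myoepithelial-like and which both genotypes had, held as much, 2.80 ± 2.47 in 4 control and 3.25 ± 1.72 in 4 double-mutant glands. A basal-like part led by Tnc, Gm7897 and Il33, also found in both genotypes, held 0 in 1 control gland and 0.58 ± 0.64 in 5 double-mutant glands. In luminal Dcpp1+-like cells the log2 difference was −1.001 ± 0.90 (adjusted p = 1), while the mean levels ran the other way, 0.063 ± 0.082 in 5 control and 0.137 ± 0.199 in 9 double-mutant glands.

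Pglyrp1 was concentrated in luminal Dcpp1+-like cells in both genotypes. These cells, which carry Dcpp1, Dcpp2, Dcpp3 and the secreted protein gene Bpifa2, were 6.48% of all cells and held 89.9% of Pglyrp1 UMIs. The level was 29.5 ± 11.8 UMIs per 10000 in 5 control glands and 38.4 ± 8.6 in 9 double-mutant glands, a log2 difference of 0.23 ± 0.41 (adjusted p = 1, edgeR). At 500 UMIs per cell 58.3% of control and 73.6% of double-mutant Dcpp1+-like cells held a Pglyrp1 UMI (94.1% and 92.5% without thinning). Whole-gland levels were high where such cells were many. Dcpp1+-like cells were absent from 2 control P40, 1 control P90, 2 double-mutant P40 and 2 double-mutant P90 glands, and these 7 held 1.43 to 125.2 CPM. The 5 glands with 1 to 3 such cells lay within that range, at 4.70 to 35.1 CPM, and the 14 with at least 21 held 248.6 to 1059 CPM. Among control P90 glands the median share of Dcpp1+-like cells was 0.111%, and at P40 it was 15.7%. Over all glands the share was 7.60% ± 10.3 in controls and 4.72% ± 4.76 in double mutants (adjusted p = 0.425 by the permutation test).

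The next group for Pglyrp1 was CSC-like, a cancer stem cell-like group named from Axin2, Lef1, Notum and other markers linked to Wnt signalling, which was almost wholly double-mutant (99.35% of 307 cells). It held 10.3 ± 6.25 UMIs per 10000 in 9 double-mutant glands. In the 6 glands with both groups the Dcpp1+-like level was higher by 27.9 in 6 of 6 (exact permutation p = 0.0313, the smallest possible, adjusted p = 0.713). Luminal Muc19+-like cells came next, at 3.23 ± 1.68 over 13 glands, with no call between genotypes (log2 difference 0.20 ± 0.39, adjusted p = 0.98, against 0.282% of genes called). Pglyrp1 was called in 0 of 8 cell groups by edgeR. At an unadjusted p under 0.05 it passed in 4, acinar-like (1.80 ± 0.56), Gm24245 (4.80 ± 1.33), Gm12873 (3.13 ± 1.23) and, with the double mutants lower, proliferating-like cells (−6.64 ± 2.83, with 0.0% of genes called there). In Gm24245 and Gm12873 cells no control gland reached the filter and in proliferating-like cells no double-mutant gland did. DESeq2 called it in acinar-like and Gm24245 cells. In endothelial-like cells, where 0.0972% of genes were called, its adjusted p was 0.642. No member passed the filter on low counts in 5 more groups, T/NK-like (0.997% of genes called), ductal Klk1+-like (0.693%), ductal progenitor-like (0.767%), myoepithelial-like (0.0%) and an unnamed group led by Sprr1a (0.0%).

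Lyz1 and Lyz2 were transcripts of immune-like cells, which carry MHC class II, complement C1q and Csf1r, the macrophage growth factor receptor. These were 11.2% of all cells and held 95.9% of Lyz2 and 93.7% of Lyz1 UMIs. Of 116 immune-like cells with a Lyz1 UMI 113 also held Lyz2, while 1207 held Lyz2. Lyz2 stood at 12.9 ± 7.64 UMIs per 10000 in 10 control glands and 43.6 ± 29.3 in 14 double-mutant glands, a log2 difference of 1.21 ± 0.32 (adjusted p = 0.0153, edgeR). Lyz1 stood at 0.149 ± 0.238, with 6 of 10 control glands at 0, and 1.70 ± 1.70, a log2 difference of 2.96 ± 0.68 (adjusted p = 0.0083). Both were called within the cell group, where 10.1% of genes were, but Lyz1 had passed the filter through the double mutants alone. The group is a mix of the parts described below, so its level also depends on which parts a gland held. How much of the difference came from that mix was not tested. Immune-like cells were also a larger share of double-mutant glands, 16.1% ± 8.92 against 5.58% ± 4.28 (adjusted p = 0.00455 by the permutation test over glands).

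The immune-like cluster split into parts that differed in lysozyme. A part led by Gpnmb, Mmp12 and Ccl6, genes of phagocytic macrophages, held 356 cells of which 94.7% were double-mutant. Lyz2 there was 134.6 ± 81.0 UMIs per 10000 (8 double-mutant glands, lowest 57.7, highest 297.2) and Lyz1 5.21 ± 4.85 (lowest 0.949, highest 13.3), and no control gland had 10 such cells. Pooled over cells, Lyz2 there was 53.2 in 19 control cells and 144.6 in 337 double-mutant cells. A small part led by Ccl8, Cd163 and Cd209f was also high, at 131.8 in 11 control and 93.2 in 55 double-mutant cells. In parts that had 10 cells in glands of both genotypes, the ranges of the genotypes overlapped. In the largest, led by Il2ra, Lyz2 was 21.5 ± 5.18 in 5 control and 24.2 ± 18.1 in 11 double-mutant glands, and in a part led by Ccl12 it was 26.7 ± 9.90 in 2 and 27.4 ± 16.1 in 10. In a part led by Hsph1 the Lyz2 mean was lower in double mutants, 17.4 ± 8.05 in 3 control and 11.6 ± 6.12 in 4 double-mutant glands. The Lyz1 mean was lower in double mutants in the Il2ra part, 0.689 ± 0.690 against 0.308 ± 0.406. In the Ccl12 part Lyz1 was 0 in both control glands and 0.660 ± 0.629 in double mutants. In a part led by H2-Ea-ps Lyz2 was low in both genotypes, 2.26 ± 1.74 in controls and 3.58 ± 2.96 in double mutants, and Lyz1 was at 0 in all 12 glands with 10 such cells. These parts were compared as a description, without a test. Their make-up also differed between genotypes. The H2-Ea-ps part held 547412 UMIs in controls and 283554 in double mutants, and the Gpnmb part held 18623 and 315863.

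**Figure D4:**
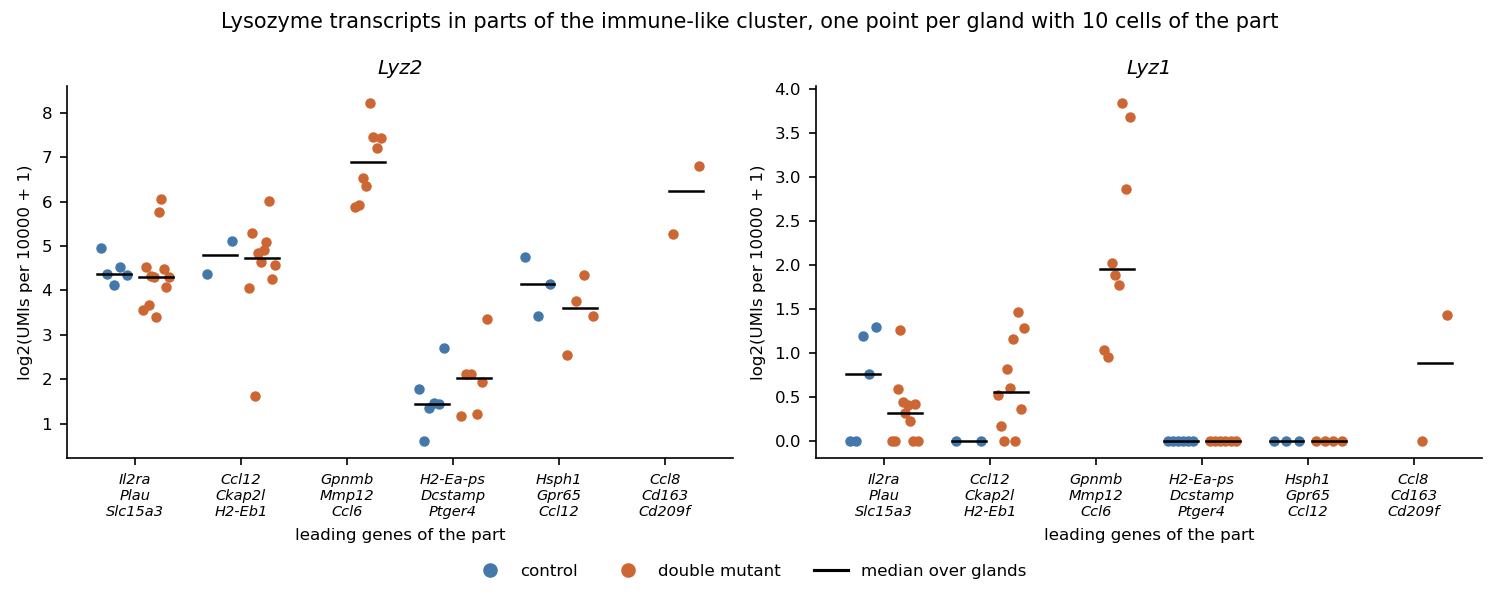
Lyz2 (left) and Lyz1 (right) as log2(UMIs per 10000 + 1) in parts of the immune-like cluster, named by their leading genes, with 1 point per gland with at least 10 cells of the part and a line at the median. The part led by Gpnmb has double-mutant points only, and its Lyz2 values of 57.7 to 297.2 UMIs per 10000 exceed all but a few points of the other parts.

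Neutrophils were scarce in the cells kept. A neutrophil-like part of 25 cells from 8 double-mutant glands, named from S100a8, S100a9, Cxcr2 and other markers, held 8718 UMIs in all. Among them Ltf, Lcn2 and Lyz1 had 0 UMIs, which allows up to 3.44 per 10000, Pglyrp1 had 1 and Lyz2 had 47. The summed level of 17 measured neutrophil markers of 20 listed was 0.256 to 8.54 CPM in control glands and 1.31 to 143.1 CPM in double-mutant glands, with 6 at 0 in all controls (S100a8, Camp, Ngp, Elane, Ctsg and Mmp8) and Ctsg at 0 in all double mutants. The granule genes Camp, Ngp and Elane were thus detected in double-mutant glands only. The summed level of 15 of 16 macrophage markers was 54.6 to 874.4 CPM (median 293.2) in controls and 455.1 to 4830 CPM (median 1573) in double mutants. The part of these cells in the whole-gland differences was not tested, beyond the levels within cell groups given above.

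The CITE-seq glands gave the members in 4 further glands at P70. All 5 members were called higher in the 2 double-mutant glands than in the 2 control glands. Of 10058 genes 13.7% were called in either direction, 928 of them higher and 450 lower in double mutants. The share of all genes whose genotypes did not overlap in these 4 glands was not counted. Ltf and Lyz1 reached the filter, 7.02 CPM here, in no control gland, so both were bound to lie higher in the double mutants. Lcn2 reached it in 1 of 2 control glands. Ltf was 0 and 0 CPM in controls and 373.9 and 319.2 CPM in double mutants, at least 456.9-fold above the limit for the controls (adjusted p = 0.000196, edgeR). Lcn2 was 7.44 and 2.72 CPM against 46.3 and 49.2 CPM (log2 difference 2.56 ± 0.44, adjusted p = 0.0145). Pglyrp1, which showed no call in the Drop-seq glands, was 17.2 and 7.71 CPM against 120.7 and 202.9 CPM (2.99 ± 0.41, adjusted p = 0.00699). Lyz1 was 1.14 and 1.36 CPM against 65.4 and 125.3 CPM (5.41 ± 0.50, adjusted p = 0.00127), and Lyz2 was 98.9 and 112 CPM against 1088 and 1660 CPM (2.97 ± 0.30, adjusted p = 0.00201). Both double-mutant glands were female and the controls were 1 male and 1 female, so sex was not balanced. Without double-mutant replicate 1 the Lcn2 difference of 2.52 was no longer called.

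The bulk libraries, 1 of each genotype and at different stages, had 34515744 and 34729551 reads on genes. Ltf had 2 reads in the control and 507 in the double mutant, a ratio of 251.9 with a 95% counting interval of 69.4 to 2086. Lcn2 had 45 and 258 reads (5.70-fold, interval 4.14 to 8.01), Pglyrp1 41 and 323 (7.83-fold, 5.65 to 11.1), Lyz1 30 and 121 (4.01-fold, 2.67 to 6.20) and Lyz2 1690 and 3644 (2.14-fold, 2.02 to 2.27). All 5 were past 2-fold, against 17.2% of 14552 genes with at least 10 reads in a library (5.99% higher in the double mutant). These intervals cover counting error only and the difference between the libraries has no replicate check. In TPM, a scale corrected for transcript length, Lyz2 was highest in both libraries (33.9 and 73.8) and Pglyrp1 next in the double mutant (12.2).

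**Figure D5:**
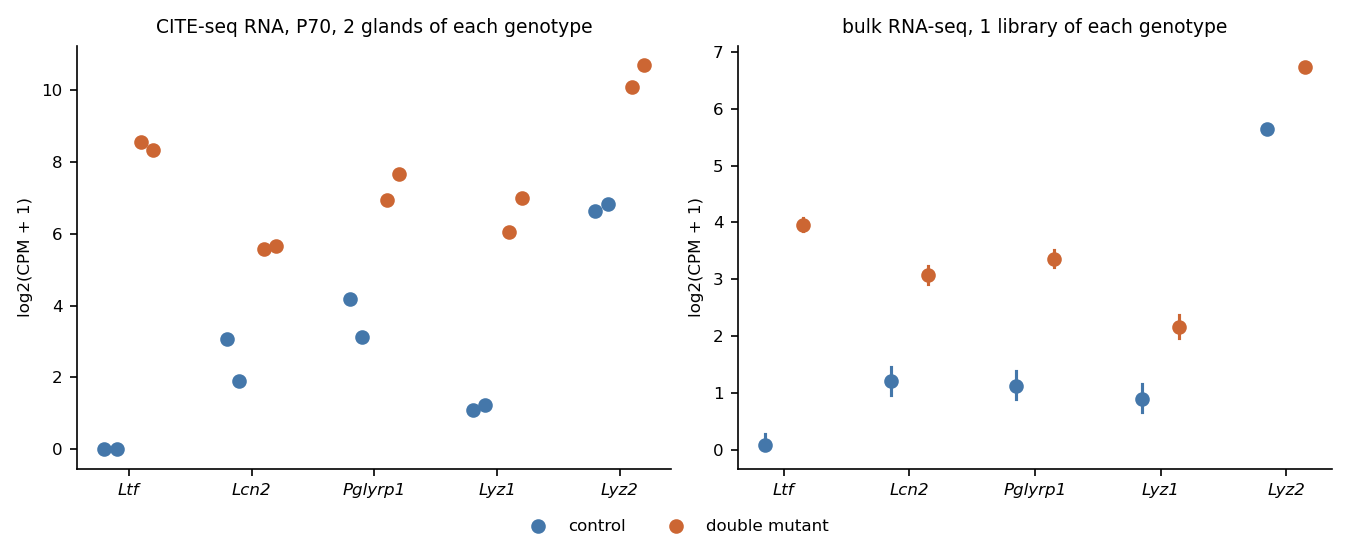
Members in the CITE-seq glands (left, 1 point per gland) and in the bulk libraries (right, 1 point per library with the 95% counting interval as a line), as log2(CPM + 1). All double-mutant points lie above the control points of the same gene, with Ltf at 0 CPM in both control CITE-seq glands.

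Genes of related function were read from lists. Of 38 other antimicrobial genes 16 could be tested in whole glands, and 6 rose and 0 fell, with a median log2 difference of 0.59 against 0.02 over all genes tested. The 4 with the smallest p were Slpi, a protease inhibitor of mucosal secretions (4.47 ± 0.57), the lectin gene Reg3g (6.33 ± 0.91), the chitinase-like gene Chil1 (4.24 ± 0.85) and the calprotectin subunit S100a8, which was at 0 in all control glands and at a mean of 14.5 CPM in double mutants. Reg3g, Chil1 and S100a8 reached the filter in no control gland. The genes of the list with the highest levels did not pass, Wfdc12 at 0.07 ± 0.57 and Wfdc18 at 1.83 ± 0.69 (adjusted p = 0.0562, edgeR). All 15 macrophage markers tested rose, with a median of 1.71, among them Fcgr3 (2.07 ± 0.37), Cd68 (1.56 ± 0.28), Mpeg1 (2.01 ± 0.39) and Ctss (1.94 ± 0.39). Of 17 measured neutrophil markers only 3 could be tested, and Il1r2 (2.49 ± 0.58) and S100a8 were called, both past the filter through the double mutants alone.

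Of 15 inducers and regulators of Lcn2 that could be tested 6 rose and 0 fell, with a median of 0.74. The 4 with the smallest p were the cytokine Tnf (1.88 ± 0.40), the transcription factor Stat3 (0.59 ± 0.14), the RNase gene Zc3h12a (0.89 ± 0.22) and the NF-kappaB subunit Nfkb1 (1.28 ± 0.32). Those with the highest level did not pass, Nfkbia at 0.32 ± 0.15 and Cebpd at −0.40 ± 0.23. Of 12 iron-handling genes tested 7 rose and 0 fell, with a median of 0.72. Lrp1 (2.27 ± 0.37), the transferrin gene Trf (2.03 ± 0.38), the ferrireductase Steap4 (1.94 ± 0.37), ceruloplasmin Cp (1.595 ± 0.40) and the ferritin heavy chain Fth1 (0.66 ± 0.20) were among them, and the ferritin light chain Ftl1 was at 0.03 ± 0.28 (adjusted p = 0.953, edgeR). These lists are described beside 14.4% of all genes called higher, and the larger share of immune-like cells in double-mutant glands moved with them; its part in these counts was not tested.

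Across the 26 glands the log2(CPM + 1) levels of the lysozymes were the most alike of the members (Pearson r = 0.86 for Lyz1 with Lyz2, 0.81 for Ltf with Lyz1, 0.75 for Ltf with Lyz2 and 0.73 for Ltf with Lcn2), as a description over glands that share genotype and depth. Among 9204 genes with a mean of at least 5 CPM the profiles most like Ltf over glands were those of the Wnt antagonist Dkk2 and of Igf2 (r = 0.93 each) and S100a14 (0.93), and over 18 named cell types, among 11664 genes, those of Gabrp and Rhov (0.80 each) and Wfdc18 (0.74). For Lcn2 they were Capg, Clec4n and Sh3kbp1 over glands (0.80 each) and Clu (0.77), Foxc1 and Cst6 (0.75 each) over cell types. For Pglyrp1 they were BC048546, Bpifa2 and Lmod2 over glands (0.92, 0.92 and 0.90) and Sox2, Ceacam10 and Kcne1 over cell types (0.77, 0.76 and 0.74). For Lyz1 they were Nkd1 (0.90), Ccl6 and Itgam (0.89 each) over glands and Osm (0.89), Igsf6 (0.86) and Trem2 (0.83) over cell types. For Lyz2 they were Ctss, Cd68 and Fcgr3 over glands (0.96, 0.96 and 0.95) and H2-Ab1, C1qc and Csf1r over cell types (0.93, 0.92 and 0.92).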

How the data were processed

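Single-cell tables for 26 Drop-seq and 4 CITE-seq mouse submandibular glands held counts, deposited by the authors as UMIs per gene and cell. The authors sorted live cells, fixed them in methanol for Drop-seq and not for CITE-seq, and processed reads with Drop-seq tools and STAR on mm10 with GENCODE vM7 genes plus Cre and EYFP. The 2 bulk tables held read counts per gene, which the authors obtained with STAR and featureCounts, as the submitters' processing notes name them. UMIs count transcript ends and were used without a length correction. Levels were compared between genes only in bulk, as TPM. The antibody tag tables of the 4 CITE-seq glands were not used here. The 5 members and all gene lists were chosen with earlier results of these data known.

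Cells with at least 100 genes and at most 15% mitochondrial UMIs were kept, and for CITE-seq at most 2500 genes. No doublet caller was run, and leaving out the 5% of cells with the most UMIs was an alternative. Cells were clustered (2000 variable genes without the members, 30 components, 20 neighbours, Leiden resolution 1.0) and mixed clusters were split again at 0.5. A name needed 3 markers at 2-fold and in 10% of cells. For tests, UMIs were added up over a gland or over the cells of 1 group in a gland (at least 10 cells, 3 glands per genotype) and analysed with edgeR 4.0.16 in R 4.3.3 (quasi-likelihood, TMM, Benjamini-Hochberg over all genes, threshold 0.05). Replicates are separate libraries by their labels, and where nothing says that they came from separate animals p-values measure only the spread between these samples. Alternatives were DESeq2 1.42.0, other scalings, no filter on low counts, thinning, all barcodes, batch, replicate block, and left-out glands and libraries. Shares and levels used permutation tests (scipy 1.17.1, numpy 2.4.6), and clustering used scikit-learn 1.9.0, igraph 0.11.9 and leidenalg 0.10.2 in Python 3.11.15. Intervals are 95% exact and cover counting error only. On simulated data for whole glands (10366 genes) edgeR recovered 54 of 100 genes changed 2-fold and 100 of 100 changed 4-fold, with 3 false calls. In immune-like cells (1621 genes) it recovered 58 and 100, with 2 false calls. The simulation gave all genes the same fixed spread and no effect of sex, stage or batch. In the real whole glands the log2 SE was 0.88 for Pglyrp1 and 1.08 for Ltf, so these recovered shares need not hold for the members.

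Genes were named by rule: the 5 members, up to 4 genes of each list that passed in whole glands by smallest p, list genes with the highest level, and for each member the 3 genes with the highest Pearson correlation over glands and over named cell types among genes with a mean of at least 5 CPM.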

Additional observations from a re-analysis of the deposited data

Results flagged for a closer look

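Of 19 groups of glands tested for a value far from the others, 4 held one, where chance gives about 1 in 20. Lcn2 in control P90 replicate 4, a male, was 62.7 CPM against a group median of 8.57 CPM. Lyz1 in double-mutant P40 replicate 5 was 18.5 CPM (18.45) against a median of 4.95 CPM. Pglyrp1 in control P90 replicate 3 was 765.1 CPM against a median of 14.8 CPM, and in double-mutant P90 replicate 6 it was 1029 CPM against a median of 248.6 CPM. In each case the gland was the highest of its group.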

How the results depend on the processing

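Directions and calls of Ltf, Lyz1 and Lyz2 in whole glands were kept in all 26 fits that left out 1 gland, with log2 differences of 6.18 to 7.37, 3.62 to 4.46 and 2.45 to 2.81. Those of Lcn2 ran from 1.29 to 1.85 (8 of 26 called) and those of Pglyrp1 from −0.50 to 1.29 (0 called). With all deposited barcodes Pglyrp1 was −0.12, and Lcn2 missed the threshold (adjusted p = 0.0532, edgeR). Genes called in whole glands numbered 2309, and 309 with batch as a factor, 1071 after thinning, 5499 with library totals and 1569 without the sex-discordant libraries. In the CITE-seq glands 1378 became 644 with DESeq2, 3014 with library totals and 2356 with no filter. At P40 157 became 731 with DESeq2, 7 with batch, 26 after thinning, 2184 with library totals and 1313 with no filter. At P90 920 became 1504 with DESeq2, 123 with batch, 507 after thinning, 1809 with no filter and 366 without the sex-discordant libraries. For stage in controls 577 became 911 with DESeq2, 0 with batch, 28 after thinning, 1523 with no filter and 878 without the library high in ribosomal genes. For sex in controls 64 became 100 with DESeq2, 16 with batch, 28 after thinning and 326 with no filter.

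Without a filter on low counts, members called numbered 4 at P40, 2 between stages in controls, 4 between stages in double mutants, 1 for genotype by stage, 1 for sex by genotype and 20 within cell groups. At P40, 1 was called after thinning and 1 with batch as a factor. For sex in controls 0 were called with library totals, 0 with the replicate block and 0 with batch. Other values that turned in direction were never called: Pglyrp1 at P40 was 0.45 with library totals and 0.0175 without the sex-discordant libraries, Lcn2 and Lyz2 between stages in controls were −0.34 and −1.25 with batch, Lyz2 for genotype by stage was −0.16 with library totals and −0.065 without the sex-discordant libraries, Ltf for sex in controls was 0.40 after thinning and 0.027 with all barcodes, Pglyrp1 for sex in double mutants was 0.011 without the sex-discordant libraries, and Ltf for sex by genotype was 2.15 with batch. The causes were not tested.

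Replicate numbers did not pair the glands: 14 of 37 same-numbered pairs correlated above 0.1 (median 0.061, against −0.025 in other pairs). With the replicate block 3362 genes were called in whole glands, 1003 at P40, 1874 at P90, 1873 in CITE-seq glands and 3 for sex in controls. Pglyrp1 at P40 was then 0.051, Ltf for sex in controls 0.26 and Lyz2 for sex in double mutants −0.12.

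Ltf in Clu+-like cells was 26.3 UMIs per 10000 at resolution 1.4, and 7 cell groups differed in share at 0.6. Thinned to 300 UMIs, 56.8% of Clu+-like cells held Ltf and 14.1% Lcn2, 57.9% of double-mutant Dcpp1+-like cells held Pglyrp1 (92.5% unthinned), and 2.84% and 37.3% of immune-like cells held Lyz1 and Lyz2 (46.5% unthinned for Lyz2). List genes called became 10 for inducers with DESeq2 and 10 with no filter, 15 for antimicrobial genes and 7 for neutrophil markers with no filter.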
